A study of Oryza sativa Japonica Group with 4 samples.

Results

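Anthers of sterile *sstl-s* rice plants were set against anthers of fertile *SSTL-F* plants at the young microspore (YM) stage, gene by gene. A gene entered the comparison when at least 10 reads were counted on it in either of the YM libraries, and 23348 of the 35825 genes in the tables did so. The other 12477 genes were below that minimum, and 5977 of them had no read in either library. Both kinds of plant were segregants from the progeny of a semi-sterile *sstl* line of the japonica cultivar Tainung 67 (TNG67), which came from a T-DNA insertion collection and was grown in a growth chamber. *sstl-s* panicles were sterile and *SSTL-F* panicles fertile. The study found that sterility did not follow the T-DNA, which the collection's database places in an exon of the Mei2-like gene Os02g0517531. Both semi-sterile plants that the study found in the parent population were genotyped as free of the T-DNA. The T-DNA genotype of the sequenced plants was not given in the sources used here. Os02g0517531 had 7807 counts in *sstl-s* and 9094 counts in *SSTL-F* at YM, a log2 fold change of -0.41. A second pair of libraries came from the same genotypes at the late pollen mitosis (LpM) stage.

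Each genotype and stage had 1 library, so no difference has a replicate check and no p-value is given. The number of plants or florets behind a library was not given in the sources used here, and neither was the hour of harvest. The YM libraries held 11559430 counts in *sstl-s* and 10161675 counts in *SSTL-F*, and the LpM libraries 11076871 and 11523243 counts in the same order of genotypes. Levels are CPM, the counts scaled to an equal total in each library. A log2 fold change is *sstl-s* over *SSTL-F*, computed after adding a prior count of 1, and is above 0 where *sstl-s* had more. Bracketed ranges are exact 95% Clopper-Pearson intervals, which cover counting error only and not differences between plants or RNA preparations.

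Microspores are freed from the tetrad shortly before the YM stage. The tapetum, the innermost anther wall layer, then secretes lipid and phenolic precursors that polymerize as sporopollenin into the exine, the outer pollen wall. It later dies by programmed cell death, which in rice is driven by a cascade of transcription factors and by aspartic proteases. The study describes few free microspores in *sstl-s* anthers at YM. In such bulk samples, fewer cells of a type and less RNA per cell cannot be told apart.

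The YM comparison put 2228 genes at least 2-fold above *SSTL-F* in *sstl-s* (9.54% of the genes tested) and 633 at least 2-fold below it (2.71%). Over all genes tested the median log2 fold change was 0.11, with quartiles at -0.14 and 0.43. This small positive centre was obtained under scaling by library total, and the lists below are set beside it. It was not the same at all count levels. The median was 0.296 for genes with 10 to 24 counts in the higher library and 0.0006 for genes with 1000 counts or more. What gives rise to it was not tested. Under scalings that assume most genes to be unchanged, values drop by between 0.10 and 0.13 on the log2 scale, and the share of 2-fold calls that are higher is 71.5%, 68.7% or 70.7% in place of 77.9%. The whole counting interval lay beyond 2-fold for 605 genes that were higher (2.59%) and for 176 that were lower (0.754%). A 4-fold line left 463 genes higher and 97 lower in *sstl-s*.

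Most of the calls were on genes with few reads. Among genes with 10 to 24 counts in the higher library, 24.1% were at least 2-fold higher and 8.14% at least 2-fold lower in *sstl-s*. Among genes with 1000 counts or more, these shares were 1.34% and 1.20%. Genes with at least 100 counts numbered 14796, of which 587 were higher and 167 lower, and their median log2 fold change was 0.07. Gene length ran the same way, with genes cut into 5 classes of length: 16.3% of the shortest class were 2-fold higher, against 4.93% of the longest. Length here was worked out from a gene's counts and its deposited RPKM value. How length and count level go together, and the part of either, was not tested.

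The kind of gene model also went with the calls. RAP-DB IDs that do not end in 00 include models added to the annotation after the first numbering, and 2418 of them were tested. Of these, 975 reached 2-fold or more above *SSTL-F* in *sstl-s* (40.3%) and 41 at least 2-fold lower (1.70%), with a median log2 fold change of 0.74. IDs ending in 00 gave 5.88% higher and 2.72% lower over 14174 genes. Genes given by name gave 6.22% and 3.06% over 6756 genes. The gap was also seen at like count levels: from 250 to under 1000 counts, 27.7% of the models not ending in 00 were 2-fold higher, against 1.45% of those ending in 00 and 2.95% of named genes. These models held 2.96% of the counts of *sstl-s* and 2.53% of those of *SSTL-F*. At LpM 12.5% of them were 2-fold higher and 3.54% lower. What sets them apart was not tested.

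**Figure D1:**
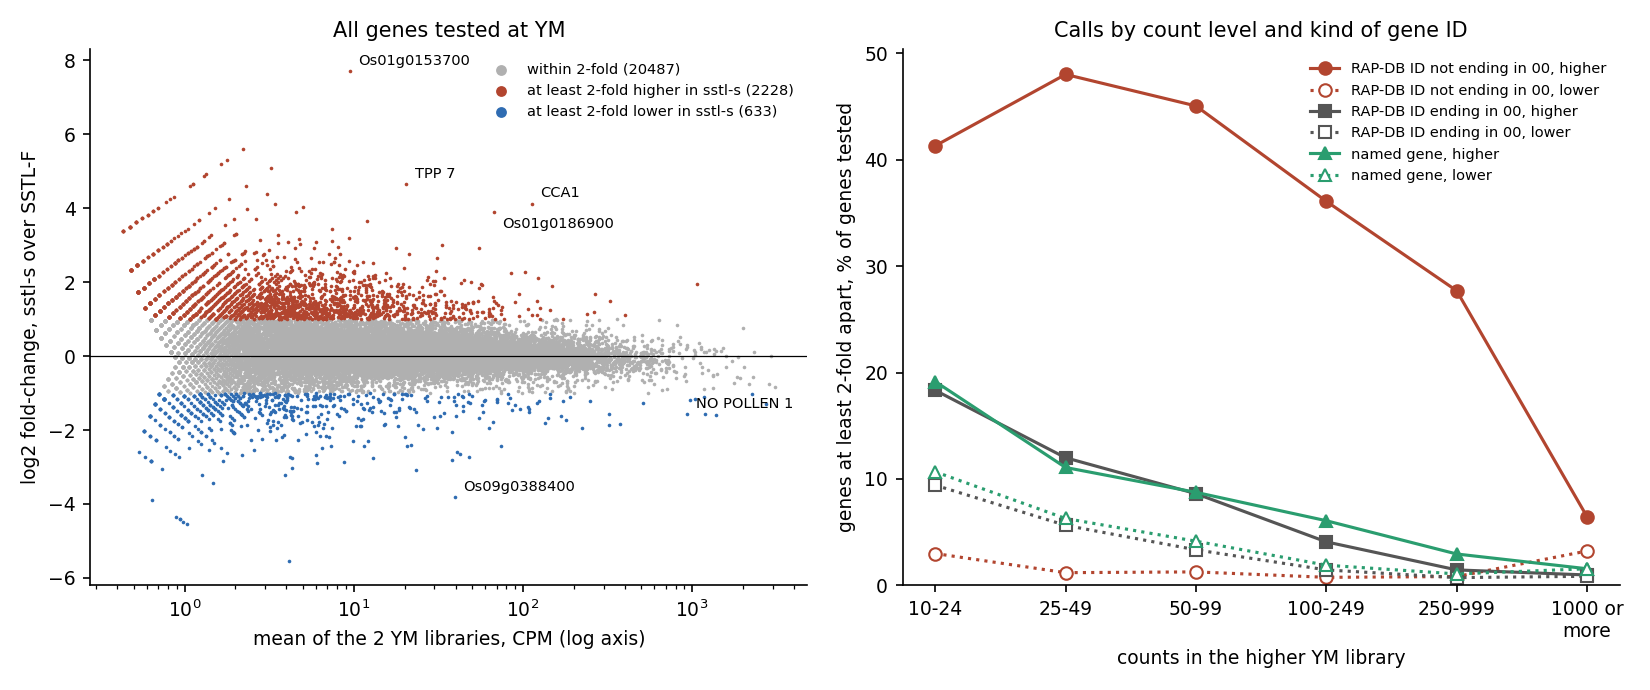
Left, log2 fold change of *sstl-s* over *SSTL-F* at YM against the mean level of each of the 23348 tested genes (CPM, log axis), coloured where it is past 2-fold. Right, percent of genes at least 2-fold higher (filled) or lower (open) by the count in the higher library, for each kind of gene ID; at 25 to 49 counts the share higher is 48.0% for RAP-DB IDs that do not end in 00 and 11.1% for named genes.

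Genes for making and exporting sporopollenin precursors were mostly lower in *sstl-s* at YM. Of 19 listed genes of exine synthesis and transport, 14 were matched and tested. The log2 fold change was below 0 for 12 of them, and the median was -0.39 against 0.11 for all genes. Beside shares of 2.71% lower and 9.54% higher over all genes, 3 of the list were at least 2-fold lower and 2 at least 2-fold higher. Counting intervals lay wholly below 0 for 10 and wholly above 0 for 2. Their summed level was 10346 CPM in *sstl-s* and 18711 CPM in *SSTL-F*. The abundance of these anther genes in both libraries fits the tissue label.

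The largest fall on this list was in *NO POLLEN 1* (*NP1*), which encodes an oxidoreductase needed for exine formation. It had 473 CPM in *sstl-s* and 1407 CPM in *SSTL-F*, a log2 fold change of -1.57 (-1.62 to -1.53). *TKPR1* encodes the tetraketide α-pyrone reductase that finishes the polyketide precursor. Its level was 1595 CPM in *sstl-s* and 3915 CPM in *SSTL-F*, with a log2 fold change of -1.30 (-1.32 to -1.27). *CYP703A3*, a P450 that hydroxylates lauric acid in the tapetum, reached 1489 CPM in *sstl-s* and 3040.2 CPM in *SSTL-F*. Its log2 fold change of -1.03 sat on the 2-fold line, and the RPKM columns put it just inside that line.

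Other steps of the same route were lower in *sstl-s* without reaching 2-fold by library totals. *PKS1*, the polyketide synthase upstream of *TKPR1*, had 2211 CPM in *sstl-s* and 3968 CPM in *SSTL-F* (log2 fold change -0.84). *ABCG15*, a transporter of the tapetal plasma membrane, had 368 and 733 CPM in the same order (-0.99), and it passes 2-fold under the other 3 scalings (-1.10, -1.13 and -1.10). *CYP704B2*, which hydroxylates longer fatty acids at their end, had 1624 CPM in *sstl-s* and 2739 CPM in *SSTL-F* (-0.75). *DPW*, a fatty acyl reductase of the plastid, was at 967 and 1329.8 CPM in that order (-0.46). Smaller values were seen for *WDA1*, a gene of anther cuticle wax (-0.32), for the acyltransferase gene *DPW2* (-0.21), for the exine patterning gene *DEX1* (-0.15), for *ABCG26* (-0.12) and for *ABCG3* (-0.07). The intervals of *DPW2* and *ABCG3* held 0.

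A pair of tapetal lipid transfer protein genes on the exine list went the other way. *OsC4* (ANTHER SPECIFIC PROTEIN 4) had 369 CPM in *sstl-s* and 161 CPM in *SSTL-F*, a log2 fold change of 1.20 (1.11 to 1.28). *OsC6* (ANTHER SPECIFIC PROTEIN 6), whose product carries lipids to the forming exine, had 24.9 CPM in *sstl-s* and 9.05 CPM in *SSTL-F* at YM, or 1.45 (1.12 to 1.82). Both genes were far more abundant at LpM, where both were lower in *sstl-s*. At that stage *OsC4* had 907 CPM in *sstl-s* and 1627 CPM in *SSTL-F*, and *OsC6* had 718 CPM in *sstl-s* and 2266 CPM in *SSTL-F*.

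Several of these genes were closer between the genotypes at LpM. There *TKPR1* had 1918 CPM in *sstl-s* and 1857 CPM in *SSTL-F*, and *CYP703A3* had 2604 CPM in *sstl-s* and 2571 CPM in *SSTL-F*. The median of the exine list was -0.12 at LpM, beside 0.06 for all genes tested there. *NP1* (-0.44), *CYP704B2* (-0.39), *ABCG15* (-0.39) and *PKS1* (-0.25) were still below 0, and *WDA1* was further below it at LpM (-0.55) than at YM. *ABCG26* and *ABCG3* were above 0 at LpM, and *ABCG3* had 38.0 CPM in *sstl-s* and 5.55 CPM in *SSTL-F* (2.76). The difference between the stages was not tested.

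Other abundant genes outside the list were named because of the size of their fall or because the study gives them, so their direction is a description. POLYKETIDE SYNTHASE 10 had 692 CPM in *sstl-s* and 2079.7 CPM in *SSTL-F*, a log2 fold change of -1.59 (-1.62 to -1.55). GDSL ESTERASE/LIPASE PROTEIN 30, of a family of lipid hydrolases, had 601 CPM in *sstl-s* and 1783 CPM in *SSTL-F* (-1.57). With *TKPR1*, *CYP703A3* and *NP1*, these were the 5 genes with the largest loss in CPM among those at least 2-fold lower. The xanthine dehydrogenase gene Os03g0429800, of purine breakdown, had 596 CPM in *sstl-s* and 1357 CPM in *SSTL-F* (-1.19). *RAFTIN1*, a structural protein gene of the tapetum picked after its values were seen, had 43.3 CPM in *sstl-s* and 97.3 CPM in *SSTL-F* (-1.17), and it was lower by a like amount at LpM (-1.16).

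**Figure D2:**
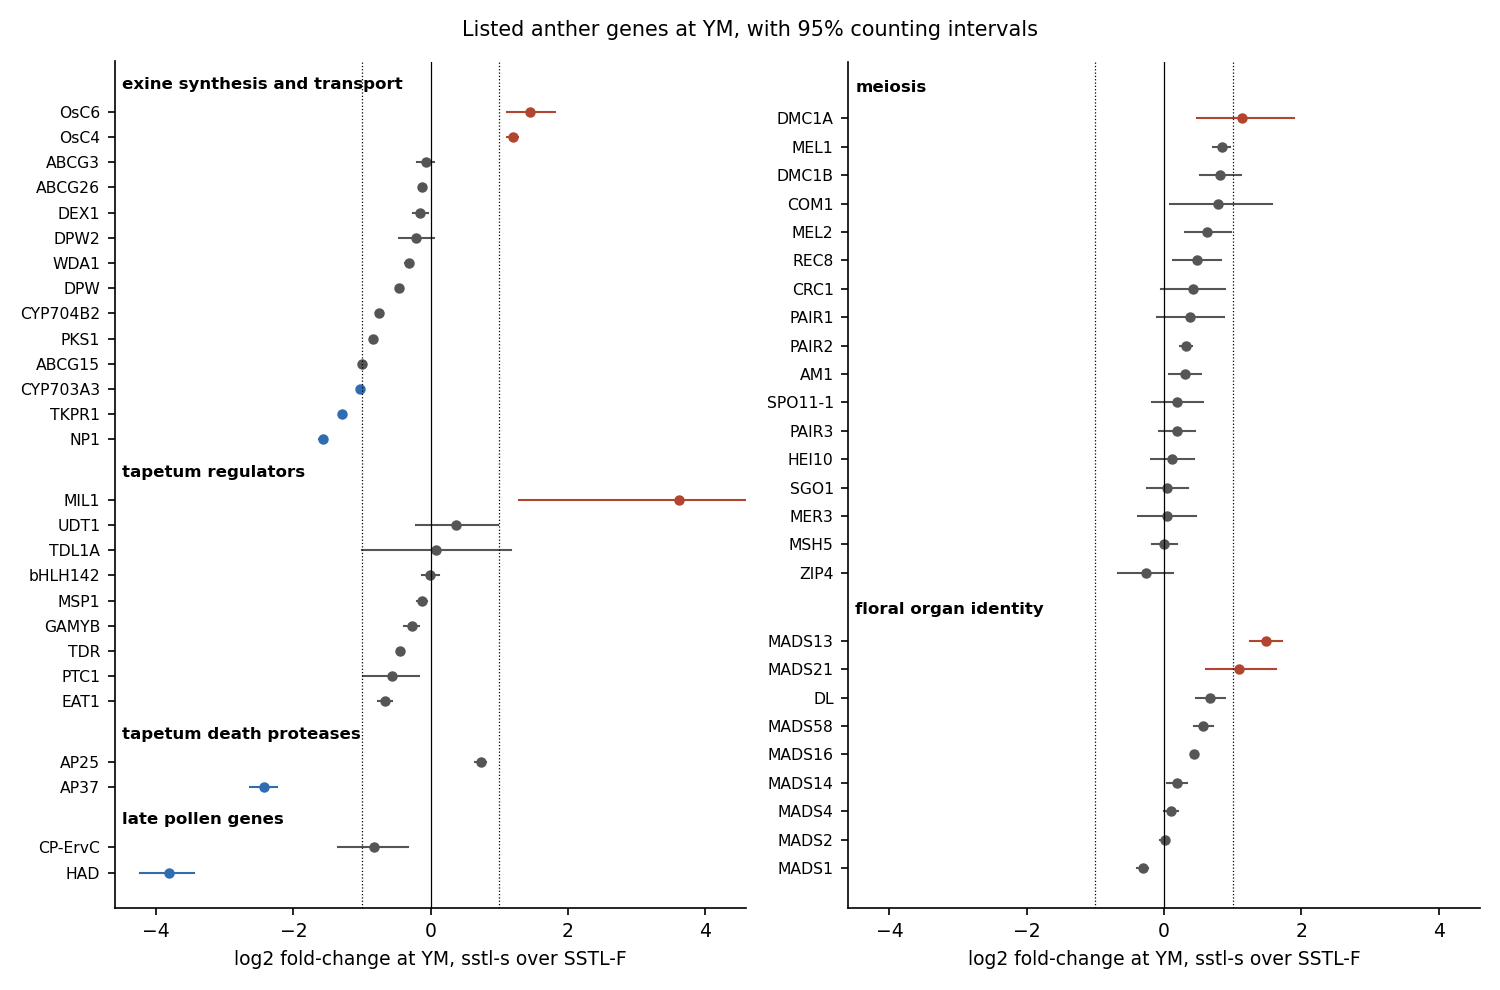
Log2 fold change of *sstl-s* over *SSTL-F* at YM for the tested genes of 6 gene lists, with 95% counting intervals from 1 library per genotype; the upper end of the *MIL1* interval is open and is cut at the axis edge, HAD is Os09g0388400 and CP-ErvC is Os09g0381400. Exine genes lie mostly left of 0, with *NP1* at -1.57 and *OsC6* at 1.45. Right of 0 lie 16 of 17 meiosis genes, as do most of all genes tested (median 0.11).

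Transcription factors and receptors of tapetum development differed by less than 2-fold, with 1 exception at few counts. Of 11 listed genes 9 were tested, 0 were at least 2-fold lower and 1 was at least 2-fold higher, with a median of -0.13. All genes tested gave 2.71% lower and 9.54% higher, with a median of 0.11. *TDR*, a bHLH factor needed for tapetum breakdown, had 519.9 CPM in *sstl-s* and 707 CPM in *SSTL-F* (-0.44). *EAT1*, a bHLH factor that acts after *TDR*, had 108 CPM in *sstl-s* and 171 CPM in *SSTL-F* (log2 fold change -0.67, -0.77 to -0.56), the largest fall among the regulators tested. *PTC1*, a PHD-finger gene, stood at -0.57, *GAMYB* at -0.28 and the receptor kinase gene *MSP1* at -0.13. *bHLH142* had 97.7 CPM in *sstl-s* and 97.8 CPM in *SSTL-F* at YM. At LpM it had 37.6 CPM in *sstl-s* and 14.9 CPM in *SSTL-F* (1.33). *UDT1* (0.37) and *TDL1A* (0.07) had intervals that held 0. The gene called higher, the glutaredoxin gene *MIL1*, had 12 counts in *sstl-s* and 0 in *SSTL-F*, at least 3.52-fold higher against a floor of 3 counts.

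The aspartic protease genes that act below *EAT1* in tapetal cell death did not move together. *AP37* had 23.2 CPM in *sstl-s* and 125 CPM in *SSTL-F*, a log2 fold change of -2.43 (-2.63 to -2.24). Its entry also carries the name of a homolog of the E. coli cation transport protein ChaC, and this double name was not resolved. *AP25* had 309 CPM in *sstl-s* and 186 CPM in *SSTL-F*, or 0.73 (0.65 to 0.81). At LpM, *AP37* was nearly level between the genotypes (-0.12), and *AP25* was lower in *sstl-s*, with 973 CPM against 1573 CPM in *SSTL-F* (-0.69). In a wider list of 77 tested protease genes, 8 were at least 2-fold higher and 7 at least 2-fold lower, with a median of -0.14. Over all genes the shares are 9.54% higher and 2.71% lower, and the higher share of the proteases is near the first of these. Subtilisin 12 had 90.1 CPM in *sstl-s* and 23.3 CPM in *SSTL-F* (1.95). Subtilisin 30 had 91.7 CPM in *sstl-s* and 353 CPM in *SSTL-F* (-1.94). SERINE CARBOXYPEPTIDASE 61 was lower at both stages (-1.90 at YM and -2.49 at LpM).

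Meiotic genes were mostly a little higher in *sstl-s*. Of 18 listed genes 17 were tested, 16 of them were above 0 and 8 had counting intervals wholly above 0. The median was 0.32, beside 0.11 for all genes, most of which also lie above 0. *MSH5* (0.004), *MER3* (0.04) and *SGO1* (0.04) were above 0 but below that centre. The other scalings lower all values, so the number of members above 0 depends on the scaling. Only 1 gene passed 2-fold and it was higher, beside shares of 9.54% higher and 2.71% lower over all genes. *MEL1*, a germline Argonaute gene, had 133 CPM in *sstl-s* and 74.4 CPM in *SSTL-F* (0.84). *PAIR2*, a chromosome axis gene, had 195 CPM in *sstl-s* and 156 CPM in *SSTL-F* (0.32), and the cohesin gene *REC8* had 15.9 CPM in *sstl-s* and 11.4 CPM in *SSTL-F* (0.48). The recombinase genes *DMC1A* (1.14) and *DMC1B* (0.82) are near-identical copies, so the split of reads between them is uncertain, and *DMC1A* falls inside 2-fold by the RPKM columns. *ZIP4* was the member below 0 (-0.27). At LpM the list's median was 0.64, and 6 of its members passed 2-fold, all of them higher in *sstl-s*. All genes tested at LpM gave 4.20% higher and 6.23% lower, with a median of 0.06. There *MEL1* had 82.9 CPM in *sstl-s* and 40.4 CPM in *SSTL-F*. The 58 tested cyclin and CDK genes had a median of 0.14 at YM, and the 5 tested histone genes 0.21.

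Floral organ identity genes also tended to be higher in *sstl-s*, with 8 of 9 tested genes above 0, 2 at least 2-fold higher and a median of 0.44. All genes tested gave 9.54% higher and 2.71% lower, with a median of 0.11, so most of them also lay above 0. *MADS13*, an ovule identity gene, had 55.8 CPM in *sstl-s* and 19.9 CPM in *SSTL-F* (1.48, 1.26 to 1.72). *MADS21*, a close relative, had 10.2 CPM in *sstl-s* and 4.72 CPM in *SSTL-F* (1.10), and it came just inside 2-fold under all 3 other scalings and by RPKM. The carpel gene *DL* (*DROOPING LEAF*) had 45.9 CPM in *sstl-s* and 28.7 CPM in *SSTL-F* (0.68). *MADS58* (0.57) and the stamen gene *MADS16* (0.44) were above 0 as well, while *MADS2* was level (0.01) and *MADS1* was below 0 (-0.31). Genes of ovule and carpel thus had reads in both anther libraries and more in *sstl-s*; the part of other floral tissue in these results was not tested.

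Photosynthesis genes, which mark green tissue, summed to 745 CPM in *sstl-s* and 561 CPM in *SSTL-F* over the 31 matched genes. The 28 of them that were tested had a median of 0.26. Beside shares of 9.54% higher and 2.71% lower over all genes, 5 were at least 2-fold higher and 1 at least 2-fold lower. The genes past 2-fold higher were CHLOROPHYLL A/B BINDING PROTEIN 2R, with 74.4 CPM in *sstl-s* and 32.5 CPM in *SSTL-F* (1.19), its relative 1R (1.17), the antenna gene Lhcb2 (1.42), PHOTOSYSTEM II SUBUNIT_4 (1.17) and PHOTOSYSTEM I SUBUNIT_5 (1.09). Others lay below 0, among them PHOTOSYSTEM II SUBUNIT_5 (-1.08), PHOTOSYSTEM II SUBUNIT_2 (-0.76), RuBisCO small subunit 3 (-0.34) and the antenna gene light-harvesting protein CP29 (-0.19). Members of this list did not move as 1 group. At LpM the list's median was -0.41, while CHLOROPHYLL A/B BINDING PROTEIN 2R, 1R and Lhcb2 stood at 0.89, 0.81 and 1.04. Whether green wall tissue took part in other differences was not tested.

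Of 5 listed genes of late pollen, *MADS62*, *MADS63* and *MADS68* had 0 or 1 count in each library at YM and were below the minimum. They had 0 or 1 count in each LpM library as well. Os09g0388400, a HAD-superfamily hydrolase-like gene, had 5.19 CPM in *sstl-s* and 74.0 CPM in *SSTL-F*. Its log2 fold change of -3.81 (-4.24 to -3.45) was the largest fall of any gene with at least 100 counts. It was lower to a like degree at LpM, with 2.98 CPM in *sstl-s* and 33.8 CPM in *SSTL-F* (-3.46). Its *SSTL-F* level was thus higher at YM than at LpM, although it was listed as a gene of late pollen. The cysteine protease-like gene Os09g0381400 had 4.76 CPM in *sstl-s* and 8.46 CPM in *SSTL-F* at YM (-0.82), and 48.3 CPM in *sstl-s* and 158 CPM in *SSTL-F* at LpM (-1.71).

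Gene families named by function were counted in the same way, beside shares of 9.54% higher and 2.71% lower over all genes. Lipid transfer proteins, which shuttle lipids outside the cell, had 5 members at least 2-fold higher and 6 at least 2-fold lower of 40 tested, with a median of -0.14. The share higher is close to that of all genes. Type C non-specific lipid transfer protein 2 had 1697 CPM in *sstl-s* and 438 CPM in *SSTL-F* (1.95, 1.91 to 2.00), the largest gain in CPM of any gene past 2-fold. Non-specific lipid transfer protein 1.1 went down, with 647 CPM in *sstl-s* and 1435 CPM in *SSTL-F* (-1.15). GDSL esterases and lipases had 1 member higher and 7 lower of 62 (median -0.18). Cytochrome P450 genes had 3 higher and 7 lower of 34 (-0.15), led by P-450 76M8 with 4.93 CPM in *sstl-s* and 42.0 CPM in *SSTL-F* (-3.07) and by P-450 86A7-2 with 25.7 CPM in *sstl-s* and 99.8 CPM in *SSTL-F* (-1.95). *CYP703A3* and *CYP704B2* of the exine list also carry cytochrome P450 names, so the P450 counts are not separate from that list. Reads from close copies in such families could have been split by the counting.

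Phenolic metabolism was below the centre, and its counts are read beside 9.54% higher and 2.71% lower over all genes. Of 39 tested genes of phenylpropanoid and flavonoid synthesis 1 was at least 2-fold higher and 6 were at least 2-fold lower, with a median of -0.31. The lower ones include *TKPR1*, matched by its second name Dihydroflavonol-4-reductase 2, so it is counted here and on the exine list. The gene named phenylalanine ammonia lyase, for the entry enzyme of the pathway, had 56.0 CPM in *sstl-s* and 161 CPM in *SSTL-F* (-1.52). Chalcone isomerase_1, of the flavonoid branch, had 46.4 CPM in *sstl-s* and 127 CPM in *SSTL-F* (-1.45). CHALCONE SYNTHASE, one step earlier in that branch, was higher instead, with 29.1 CPM in *sstl-s* and 10.4 CPM in *SSTL-F* (1.47). Class III peroxidases, secreted wall enzymes that couple phenolics, had 2 higher and 9 lower of 50 (median -0.27). At LpM the medians of these 2 groups were -0.51 and -0.54.

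Carbohydrate and wall genes were nearer the centre, with the same shares of 9.54% higher and 2.71% lower over all genes. Starch synthesis genes had a median of 0.09, with 1 of 19 at least 2-fold higher and 0 lower. That gene was GRANULE BOUND STARCH SYNTHASE II, which makes amylose outside the endosperm, with 131 CPM in *sstl-s* and 47.7 CPM in *SSTL-F* (1.46), and it was higher at LpM too (2.04). Sugar transporters and invertases had 1 higher and 3 lower of 29 (median -0.04), including monosaccharide transporter 6 with 42.9 CPM in *sstl-s* and 97.6 CPM in *SSTL-F* (-1.18). Expansin and pectin genes had 4 higher and 3 lower of 49 (0.09). PECTIN METHYLESTERASE 20 had 82.8 CPM in *sstl-s* and 254 CPM in *SSTL-F* (-1.62). Cellulose and callose synthases had 0 of 33 past 2-fold in either direction (-0.07). The medians of the starch and expansin groups change sign with the scaling.

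Arabinogalactan proteins, glycoproteins of the cell surface, were split at YM and mostly lower at LpM. At YM 7 of 37 tested genes were at least 2-fold higher, 3 were at least 2-fold lower, and the median was 0.18. The shares over all genes at YM were 9.54% higher and 2.71% lower. ARABINOGALACTAN PROTEIN 3 had 14.9 CPM in *sstl-s* and 2.85 CPM in *SSTL-F* (2.35), and ARABINOGALACTAN PROTEIN 27 had 26.4 CPM in *sstl-s* and 6.99 CPM in *SSTL-F* (1.90). At LpM 18 of 38 were at least 2-fold lower and 1 was higher, with a median of -0.87. All genes tested at LpM gave 6.23% lower and 4.20% higher, with a median of 0.06. Fatty acid genes had 2 higher and 1 lower of 28 (-0.07 at YM). BETA KETOACYL REDUCTASE, of fatty acid elongation or synthesis, had 235 CPM in *sstl-s* and 63.4 CPM in *SSTL-F* (1.89), while the gene named Acyl-CoA synthetase had 14.3 CPM in *sstl-s* and 45.3 CPM in *SSTL-F* (-1.66). ABC transporters had 4 higher and 3 lower of 72, with a median of 0.01.

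**Figure D3:**
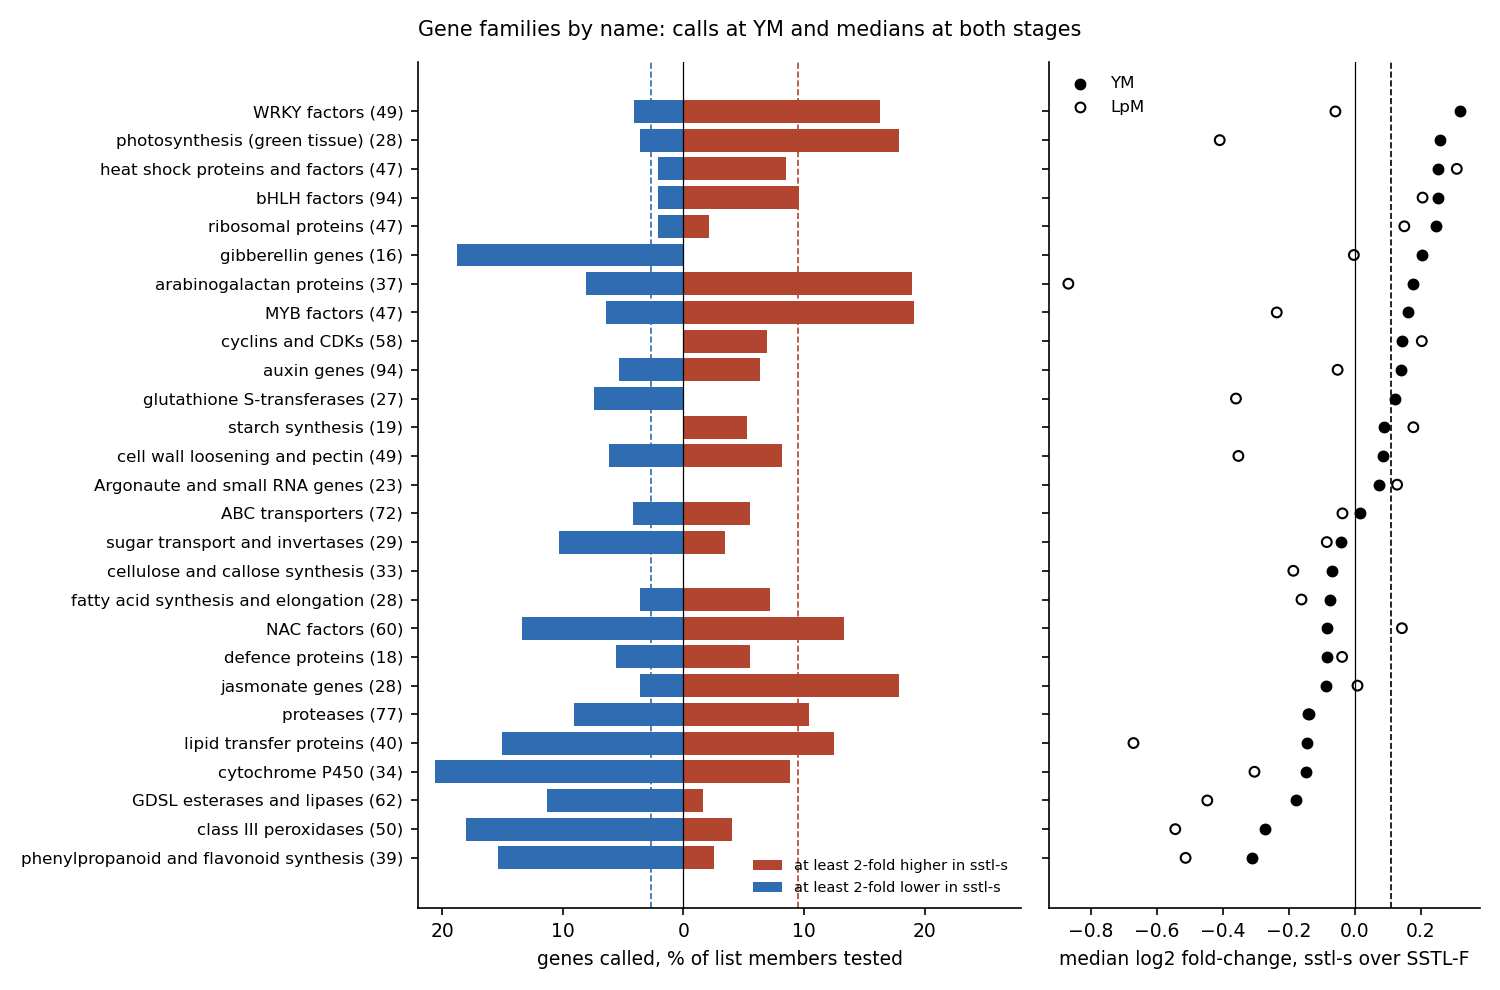
Left, percent of the tested genes of each family that were at least 2-fold higher or lower in *sstl-s* at YM, with dashed lines at the shares for all genes, 9.54% and 2.71%. Right, median log2 fold change of each family at YM (filled) and LpM (open), where peroxidases lie at -0.27 and -0.54 and arabinogalactan proteins at 0.18 and -0.87.

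Transcription factor families, read against the 9.54% higher and 2.71% lower of all genes, varied. WRKY factors, many of which act in stress and defence, had 8 higher and 2 lower of 49 (median 0.32). WRKY GENE 71 had 30.6 CPM in *sstl-s* and 8.96 CPM in *SSTL-F* (1.76) and was also higher at LpM (2.18). bHLH factors had 9 higher and 2 lower of 94 (0.25), MYB factors 9 and 3 of 47 (0.16), and NAC factors 8 and 8 of 60 (-0.08). The stress-related gene NAC DOMAIN-CONTAINING PROTEIN 6 had 22.8 CPM in *sstl-s* and 5.61 CPM in *SSTL-F* (2.00), and SNAC1, a drought-induced factor, had 52.2 CPM in *sstl-s* and 16.4 CPM in *SSTL-F* (1.66). NAC DOMAIN-CONTAINING PROTEIN 17 was lower, with 2.08 CPM in *sstl-s* and 15.5 CPM in *SSTL-F* (-2.85), as was myb transcription factor 12, with 3.29 CPM in *sstl-s* and 22.8 CPM in *SSTL-F* (-2.76). Heat shock genes had 4 higher and 1 lower of 47 (0.25). HEAT STRESS TRANSCRIPTION FACTOR A3 had 72.2 CPM in *sstl-s* and 17.2 CPM in *SSTL-F* (2.06).

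Hormone genes differed in a few members, and their counts too are read against 9.54% higher and 2.71% lower over all genes. Jasmonate genes had 5 higher and 1 lower of 28, with a median of -0.09. The higher ones included TIFY genes, repressors of jasmonate signalling, of which TIFY GENE 11B had 44.9 CPM in *sstl-s* and 10.1 CPM in *SSTL-F* (2.14). TIFY GENE 11A (1.69) and TIFY GENE 11D (1.26) were higher as well. Gibberellin genes had 0 higher and 3 lower of 16, while their median was 0.20. The 3 were a GID1L2 family receptor-like gene (-1.53), GIBBERELLIN 20-OXIDASE 3 (-1.31) of gibberellin synthesis, and GIBBERELLIN 2-OXIDASE 9 (-1.03) of gibberellin breakdown, which comes inside 2-fold by the RPKM columns (-0.83). Auxin genes had 6 higher and 5 lower of 94 (0.14), a smaller share higher than over all genes. This list was matched by name and takes in genes named amino acid/auxin permease. Its members past 2-fold with at least 100 counts were amino acid permeases 11A (1.64), 11B (1.13) and 12C (-1.22). Among 27 glutathione S-transferases 0 were higher and 2 lower, of which TAU GLUTATHIONE S-TRANSFERASE 1 had 12.8 CPM in *sstl-s* and 49.7 CPM in *SSTL-F* (-1.95). Ribosomal proteins had 1 higher and 1 lower of 47 (0.25), defence proteins 1 and 1 of 18 (-0.08), and Argonaute and small RNA genes 0 and 0 of 23 (0.07).

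The largest increases among genes with at least 100 counts were in genes of mixed or unannotated kind. Os01g0153700 had 220 counts in *sstl-s* and 0 in *SSTL-F* at YM, at least 64.5-fold higher against a floor of 3 counts, and 187 and 0 counts in that order at LpM, at least 64.8-fold. TREHALOSE-6-PHOSPHATE PHOSPHATASE 7, of trehalose synthesis, had 39.5 CPM in *sstl-s* and 1.48 CPM in *SSTL-F* at YM (log2 fold change 4.66, 4.01 to 5.59). It was level at LpM, with 9.48 CPM in *sstl-s* and 9.46 CPM in *SSTL-F*. The clock gene CIRCADIAN CLOCK ASSOCIATED 1 had 215 CPM in *sstl-s* and 12.2 CPM in *SSTL-F* at YM (4.13, 3.88 to 4.41). At LpM it had 292 CPM in *sstl-s* and 10.5 CPM in *SSTL-F* (4.78).

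The other 12 genes at the top by fold were Os06g0606100 (4.04), Os01g0186900 (3.91), Os02g0574500 (3.66), Os11g0151400 (3.43), Os01g0863300 (3.20), Os02g0209300 (3.16), Os01g0760000 (3.11), Os08g0188151 (3.09), DnaJ domain protein C10 (3.02), Os06g0255400 (3.02), Os06g0716750 (2.95) and OsCCD1 (2.93). Some of them were higher at both stages and some at YM by value. Os02g0574500 had 22.1 CPM in *sstl-s* and 1.67 CPM in *SSTL-F* at YM, and 23.9 CPM in *sstl-s* and 1.82 CPM in *SSTL-F* at LpM. Os01g0186900 had 127 CPM in *sstl-s* and 8.36 CPM in *SSTL-F* at YM, and 128 CPM in *sstl-s* and 126 CPM in *SSTL-F* at LpM. OsCCD1 had 31.3 CPM in *sstl-s* and 4.03 CPM in *SSTL-F* at YM, and at LpM it was a little lower in *sstl-s* (-0.46). By gain in CPM, type C non-specific lipid transfer protein 2 was followed by Os02g0678300, with 481 CPM in *sstl-s* and 170.3 CPM in *SSTL-F* (1.50). Next came low-temperature germinability 3-1 (*qLTG3-1*), a seed germination gene, with 553 CPM in *sstl-s* and 255 CPM in *SSTL-F* (1.12), Os11g0703000, with 407 CPM in *sstl-s* and 128 CPM in *SSTL-F* (1.67), and *OsC4*. *qLTG3-1* falls just inside 2-fold when the scaling is fitted over all 4 libraries (0.98).

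The largest falls by fold, after Os09g0388400 and P-450 76M8, were in Os07g0543600 (-2.89), NAC DOMAIN-CONTAINING PROTEIN 17, Os01g0242400 (-2.80), myb transcription factor 12, Os09g0452800 (-2.72), Os08g0331000 (-2.67), Os07g0599900 (-2.65), Os03g0118700 (-2.59), Os09g0333600 (-2.48), Os01g0931700 (-2.44), *AP37*, Os05g0305200 (-2.43) and Os03g0589100 (-2.43). Os01g0242400 had 9.52 CPM in *sstl-s* and 66.9 CPM in *SSTL-F* at YM, and 81.7 CPM in *sstl-s* and 56.9 CPM in *SSTL-F* at LpM. Os07g0599900 had 11.7 CPM in *sstl-s* and 73.8 CPM in *SSTL-F* at YM, and it was lower at LpM too (-1.27). The genes that were low in *sstl-s* at YM thus included some that reached the *SSTL-F* level by LpM and some that did not.

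**Figure D4:**
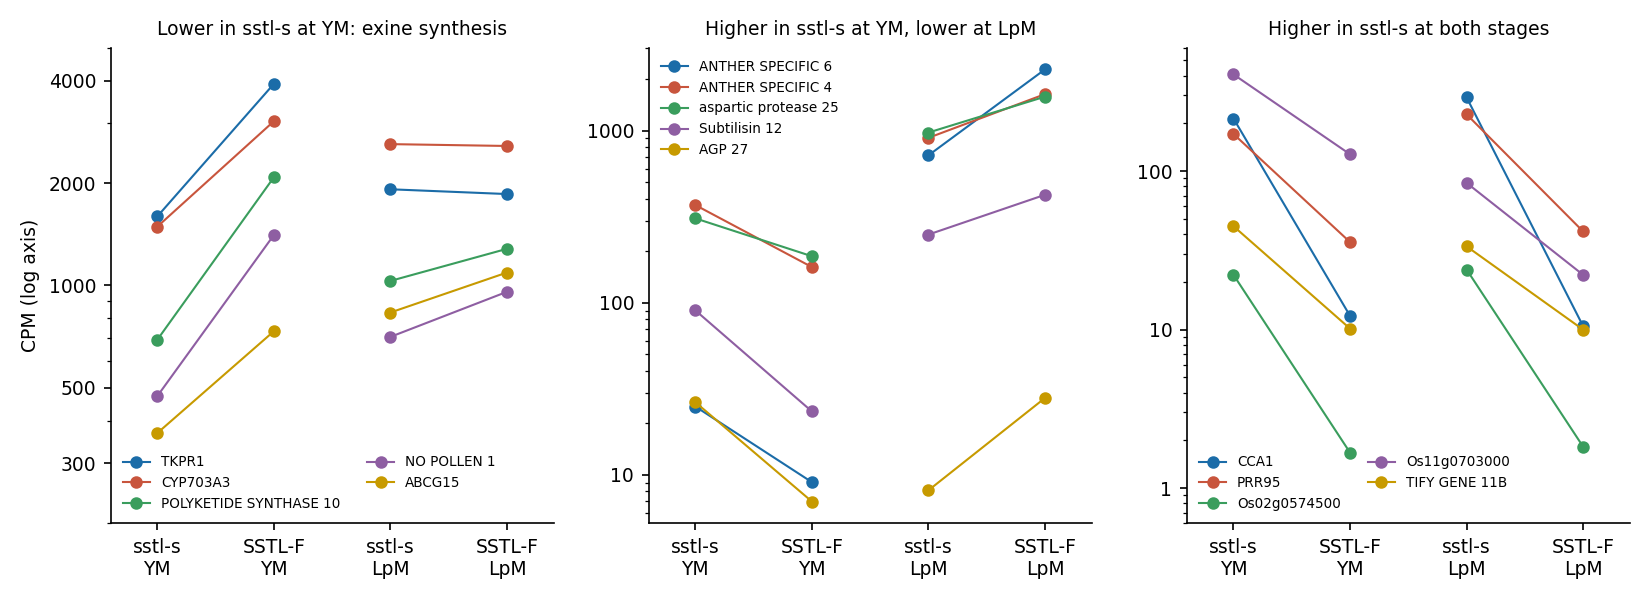
Levels of 15 genes (CPM, log axis) in the 4 libraries, in the order *sstl-s* YM, *SSTL-F* YM, *sstl-s* LpM and *SSTL-F* LpM, 1 point per library and no error bars since each group has 1 library. *TKPR1* is at 1595 and 3915 CPM at YM and at 1918 and 1857 CPM at LpM in *sstl-s* and *SSTL-F*, while CIRCADIAN CLOCK ASSOCIATED 1 is at 215 and 12.2 CPM and at 292 and 10.5 CPM.

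The LpM libraries took no part in the YM calls, and they show which YM differences were seen again in other libraries of the same genotypes. At LpM 1002 genes were 2-fold or more higher in *sstl-s* (4.20% of the 23865 tested there) and 1487 at least 2-fold lower (6.23%). Of 22670 genes tested at both stages, 1901 were 2-fold higher at YM and 368 of these were higher at LpM too, which is 19.4% of the YM list and 40.3% of the LpM list of 914. In the other direction 583 genes were 2-fold lower at YM and 162 were lower at LpM as well, which is 27.8% of the YM list and 16.8% of the LpM list of 962. Opposite calls were made for 95 genes that were higher at YM and lower at LpM, which is 4.997% of the YM list. They were also made for 29 genes that were lower at YM and higher at LpM, which is 4.974% of the YM list. Of all 22670 genes, 962 were lower and 914 higher at LpM, so opposite calls were not far above the shares of all genes. The other 1438 genes higher and 392 genes lower at YM were within 2-fold at LpM.

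Across these genes the log2 fold changes of the stages had a Pearson r of 0.32, given as a description since genes are not replicates. Genes that were 2-fold higher at YM had a median of 0.41 at LpM, and genes that were 2-fold lower at YM had a median of -0.47. A 4-fold difference at both stages was seen in 29 genes that were higher and 7 that were lower. Among the higher ones, chosen after their values were seen, were CIRCADIAN CLOCK ASSOCIATED 1, Os03g0387900 with 199 CPM in *sstl-s* and 46.2 CPM in *SSTL-F* at YM (2.11), HOMEOBOX GENE 14 (2.75) and basic helix-loop-helix protein 006 (2.04). Among the lower ones were Os09g0388400 and Os03g0105500, which had 1 count in *sstl-s* and 83 counts in *SSTL-F* at YM and 0 and 39 counts in that order at LpM. Of the 153 genes named by the rule in the methods, 150 were tested.

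**Figure D5:**
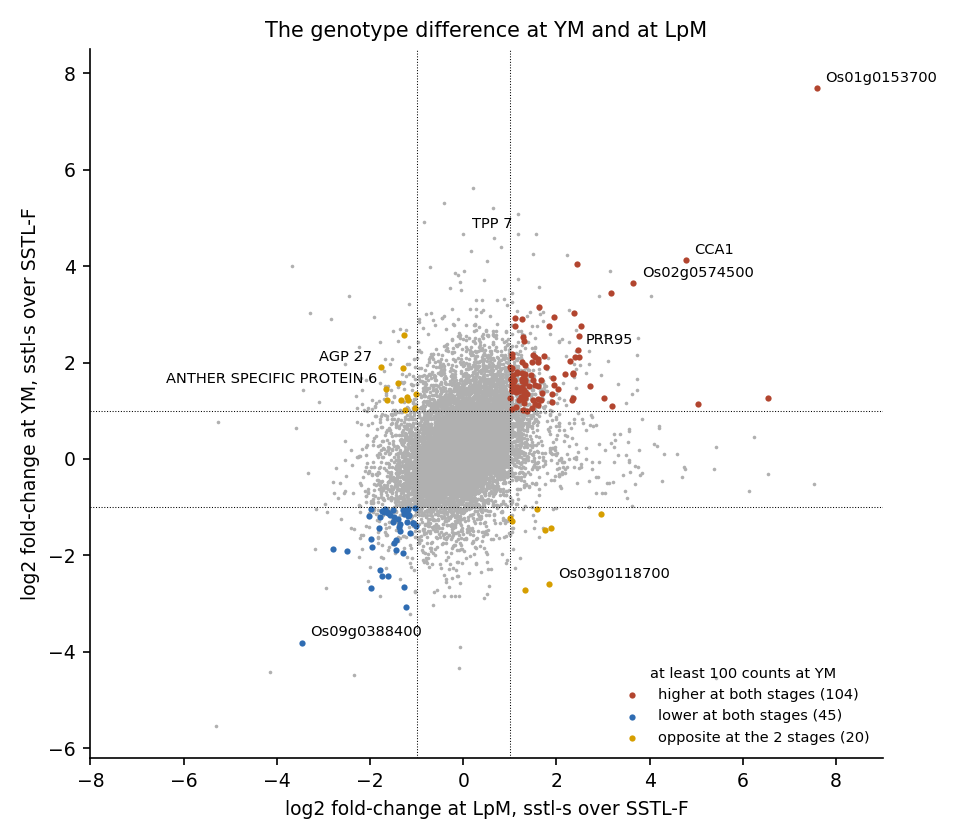
Log2 fold change of *sstl-s* over *SSTL-F* at YM (y axis) against that at LpM (x axis), 1 point per gene, with at least 100 counts for the coloured genes past 2-fold at both stages. Of the coloured genes 104 are higher at both stages, 45 lower at both and 20 opposite; Os09g0388400 lies at -3.81 and -3.46 and CIRCADIAN CLOCK ASSOCIATED 1 at 4.13 and 4.78.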

How the data were processed

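Total RNA from anthers was extracted with TRIzol and sequenced as single-end 90-base reads on an Illumina HiSeq, 1 library per genotype and stage. The authors mapped and counted the reads with CLC Genomics Workbench 11 on RAP-DB gene models; mapping settings and strand handling are not given in the sources used here, so reads of a gene and an overlapping or antisense gene may not be told apart. The deposited total counts per gene are the basis of all values. The deposited RPKM columns entered as an alternative, and the deposited TPM columns were not tested. The CPM columns deposited by the authors were treated as a score, because they do not sum to 1 total, and were not used; CPM values in the text were computed from the counts.

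Genes with at least 10 counts in either YM library were compared after scaling to library totals, with a prior count of 1 and a 2-fold line. Intervals of 95% are exact Clopper-Pearson intervals for the split of a gene's reads between the libraries. A group at 0 counts was set to a floor of 3 counts. No test was run, because each group has 1 library. The comparison, the gene lists and the family name patterns were chosen with earlier results of these data known. Lists of clock genes, trehalose-6-phosphate phosphatases and membrane intrinsic proteins were added after values were seen; a pattern for aquaporin names matched 0 genes. Of 67 listed genes 56 were matched through names in the tables. Named genes were the 15 with the largest fold in each direction with at least 100 counts, the 5 with the largest difference in CPM in each direction past 2-fold, the listed genes, up to 3 past 2-fold in each direction per family, and genes the study gives by ID where a result turns on them; not all of them are printed. Alternatives were the TMM scaling of edgeR 4.0.16 over 2 or 4 libraries, DESeq2 1.42.0 size factors, prior counts of 0.25 and 5, minimums of 1 and 50 counts, and log2(RPKM + 1). The steps were tested on simulated counts. The work ran in R 4.3.3 and Python 3.11.15 (scipy 1.17.1, numpy 2.4.6, matplotlib 3.10.9, pandas 2.3.3).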

Additional observations from a re-analysis of the deposited data

Results flagged for a closer look

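In 7 of the genes named by the rule, the difference between *sstl-s* and *SSTL-F* passed 2-fold at YM and passed it in the opposite direction at LpM. The difference between the stages was not tested, since each stage has 1 library per genotype. Over all genes tested at both stages, opposite calls made up 4.997% of those higher at YM and 4.974% of those lower at YM. Of all 22670 such genes, 962 were lower and 914 higher at LpM, so opposite calls were not far above the shares of all genes. Higher in *sstl-s* at YM and lower at LpM were ANTHER SPECIFIC PROTEIN 6 (log2 fold changes of 1.45 and -1.66) and ARABINOGALACTAN PROTEIN 27 (1.90 and -1.77). Lower at YM and higher at LpM were GIBBERELLIN 2-OXIDASE 9 (-1.03 and 1.58), NAC DOMAIN-CONTAINING PROTEIN 44 (-1.28 and 1.06), Os03g0118700 (-2.59 and 1.85), Os09g0452800 (-2.72 and 1.33) and non-specific lipid transfer protein 1.1 (-1.15 and 2.96). Non-specific lipid transfer protein 1.1 had 647 CPM in *sstl-s* and 1435 CPM in *SSTL-F* at YM, and 562 CPM in *sstl-s* and 72.1 CPM in *SSTL-F* at LpM.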

How the results depend on the processing

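The counts of genes past 2-fold at YM depended most on genes with few reads. With a minimum of 1 count, 3559 genes were higher and 1946 lower in *sstl-s*, and with a minimum of 50 counts 1020 were higher and 263 lower. The RPKM columns as log2(RPKM + 1) gave 924 higher and 228 lower. Without RAP-DB IDs that do not end in 00, an alternative chosen after seeing the data, 1253 genes were higher, and 317 had the whole interval past 2-fold higher. The scalings of TMM and DESeq2 and the other prior counts kept every count computed under them within 1.5 times. Of 108 named genes past 2-fold 0 turned direction over these settings, and between 0 (prior count 0.25) and 14 (RPKM) came inside it, among them ALPHA-EXPANSIN 5, SERINE CARBOXYPEPTIDASE 5 and *MADS21*. Of 296 recomputed list medians 15 changed sign, for starch synthesis, cell wall loosening, ABC transporters and Argonaute genes under the scalings, and for arabinogalactan proteins, glutathione S-transferases and ABC transporters with a minimum of 50 counts. No paired analysis was possible because each genotype has 1 library at a stage, and for the same reason no replicate could be left out. At these depths 3 counts is the smallest level that can be shown, and genes near 10 counts carry wide counting intervals.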

Other observations

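Clock genes, listed after CIRCADIAN CLOCK ASSOCIATED 1 was seen, were mostly above the centre in *sstl-s* at YM. Of 9 tested, 2 were at least 2-fold higher and 0 lower, with a median of 0.51, and at LpM the median was 0.67. The 2 include CIRCADIAN CLOCK ASSOCIATED 1 itself. All genes tested at YM gave 9.54% higher and 2.71% lower, with a median of 0.11. PSEUDO-RESPONSE REGULATOR 95 had 171 CPM in *sstl-s* and 35.6 CPM in *SSTL-F* at YM (log2 fold change 2.26), and 228 CPM in *sstl-s* and 41.6 CPM in *SSTL-F* at LpM (2.45). PSEUDO-RESPONSE REGULATOR 59 (0.74), PSEUDO-RESPONSE REGULATOR 73 (0.52), Heading date 2 (0.51) and TIMING OF CAB EXPRESSION 1 (0.50) were within 2-fold. GIGANTEA had 1059 CPM in *sstl-s* and 1030.2 CPM in *SSTL-F* (0.04), and LATE ELONGATED HYPOCOTYL had 5.71 CPM in *sstl-s* and 6.59 CPM in *SSTL-F* (-0.20). The hour of harvest was not tested.

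Trehalose-6-phosphate phosphatases, listed after values were seen, had 3 of 7 tested genes past 2-fold in *sstl-s* at YM, all of them higher, and a median of 0.90, against 0.10 at LpM. The shares of all genes at YM were 9.54% higher and 2.71% lower. Beside TREHALOSE-6-PHOSPHATE PHOSPHATASE 7, gene 1 of this family had 145 CPM in *sstl-s* and 45.3 CPM in *SSTL-F* (1.68), and gene 4 had 30.3 CPM in *sstl-s* and 8.27 CPM in *SSTL-F* (1.86). Membrane intrinsic proteins, which pass water and small solutes, had 2 higher and 2 lower of 20 (median -0.11), a share higher that is near the 9.54% of all genes. NOD26 LIKE INTRINSIC PROTEIN 4;1 had 99.8 CPM in *sstl-s* and 33.2 CPM in *SSTL-F* at YM (1.59), and 444 CPM in *sstl-s* and 801 CPM in *SSTL-F* at LpM (-0.85).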
